A study of Mus musculus with 7 samples.

Results

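The genes described here are 38 genes of the endoplasmic reticulum (ER) folding machinery and of the unfolded protein response, chosen by symbol from knowledge of the pathway and read from all 7 libraries of the series. All 38 are among the 28987 genes listed. They fall into 15 chaperones and folding enzymes, 4 sensors and Xbp1 genes, 7 genes of the ATF4 arm (Atf4 itself and genes linked to it), 6 genes of ER-associated degradation (ERAD) and 6 genes of the translocon and of transport out of the ER. RNA came from bone marrow of C57BL/6 mice with a mutation of RUNX1 (RUNX1mut), with overexpression of HMGA2 (HMGA2-OE), with both, or with neither (Control). Stem and progenitor cells (HSC/P), enriched by CD117 and then sorted as the mutant clone, gave 1 library with HMGA2-OE alone and 2 with RUNX1mut/HMGA2-OE, called the pair below. Every HSC/P library carried HMGA2-OE, and no HSC/P library without it is analysed here. Sorted Ly6G+ myeloid cells gave 1 library of each of the 4 genotypes. Values of the Ly6G+ libraries are given in the order Control, HMGA2-OE, RUNX1mut, RUNX1mut/HMGA2-OE, and those of HSC/P with HMGA2-OE first. The labels do not state the RUNX1 allele, how HMGA2-OE was brought about, or the age of the mice.

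The ER folds secreted and membrane proteins with the help of chaperones such as the Hsp70 family member Hspa5 (BiP), lectin chaperones and disulfide isomerases. When unfolded protein builds up, the sensors encoded by Ern1, Eif2ak3 and Atf6 act through the transcription factors XBP1, ATF4 and ATF6, which raise chaperones, degradation genes and amino acid metabolism genes. Granulocytes make most of their granule proteins at the progenitor and promyelocyte stages, and mature neutrophils are known for a small ER.

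The values are TPM (shares of all transcripts, normalised for transcript length), and the read depth behind them is unknown. Column totals ran from 896820 to 935711 TPM for HSC/P and from 984650 to 993009 TPM for Ly6G+ cells. Kit, the gene of CD117, was at 61.8, 155 and 134 TPM across HSC/P and ranged from 3.43 to 5.20 TPM across Ly6G+ cells, where Ly6g ranged from 269.6 to 441 TPM. HMGA2-OE HSC/P stood apart from its pair: Ly6g was at 136 TPM against 7.28 and 16.8, and 12 neutrophil markers summed to 61508 TPM against 17726 and 18463. Most of the HMGA2-OE sum was S100a8 and S100a9, at 33943 and 19225 TPM. Within the list, Cxcr2 (16.4 TPM against 30.1 and 26.0) and Csf3r (42.4 TPM against 70.5 and 62.3) went the other way. S100a8 alone took 44.3%, 55.0%, 40.2% and 3.11% of TPM in the 4 Ly6G+ libraries, so TPM of every other gene moves with it. Differences are therefore given after scaling between libraries by a trimmed mean of log ratios, as log2(scaled TPM + 1), a scale that understates changes of low genes. Runx1 levels were 18.9, 219 and 225 TPM across HSC/P and 3.85, 3.36, 11.6 and 21.2 TPM across Ly6G+ cells, higher wherever the mutation was labelled. Hmga2 levels were 147, 176 and 138 TPM across HSC/P and 1.45, 3.72, 1.36 and 12.1 TPM across Ly6G+ cells, so that both Ly6G+ libraries labelled HMGA2-OE lay above the other two but far below HSC/P.

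Several chaperone promoters carry the ER stress response element, the sequence through which ATF6 and XBP1 are known to act, and a smaller number of members carry the element bound by ATF4 with C/EBP partners. RefSeq promoter windows (GRCm38.p6, from 250 bases before to 50 after the start) were found for 32 of the 38 members. The letters searched on both strands were CCAAT, any 9 bases and CCACG for the ER stress response element, ATTGG, any 1 base and CCACG for its second form, and TGATG, any 1 base and AA for the ATF4 element. Both ER stress elements thus share CCACG. The first was in 7 of 32 members, 6 of them among 13 chaperones, against 37 of 27025 genes with a window (0.137%). The second was in Herpud1 and Dnajb11 against 12 of all genes (0.0444%), and the ATF4 element was in Asns, Chac1, Trib3 and Herpud1 against 1219 of all genes (4.51%). A match describes letters only. Stretches are printed for every member with a match before the start, so that the letters can be set beside the RNA levels below; the matches of Dnajb11 and Trib3 lie after the start and are not printed. In the stretches printed, capitals mark the fixed letters of a match.
Hspa5, chr2:34772017-34772051, plus strand: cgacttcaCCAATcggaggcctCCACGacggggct
Hsp90b1, chr10:86705525-86705664, minus strand: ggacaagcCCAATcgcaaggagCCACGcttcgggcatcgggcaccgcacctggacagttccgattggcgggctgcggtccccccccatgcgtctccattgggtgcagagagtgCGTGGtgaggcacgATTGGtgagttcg
Canx, chr11:50325792-50325826, minus strand: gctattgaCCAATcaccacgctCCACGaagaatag
Pdia6, chr12:17266483-17266517, plus strand: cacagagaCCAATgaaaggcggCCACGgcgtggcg
Dnajc3, chr14:118937819-118937853, plus strand: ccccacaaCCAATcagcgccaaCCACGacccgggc
Creld2, chr15:88819512-88819546, plus strand: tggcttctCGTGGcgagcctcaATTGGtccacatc
Syvn1, chr19:6046524-6046558, plus strand: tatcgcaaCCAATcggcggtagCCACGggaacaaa
Herpud1, chr8:94386309-94386395, plus strand: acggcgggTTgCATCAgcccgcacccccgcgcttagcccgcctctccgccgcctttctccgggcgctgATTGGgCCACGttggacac
Asns, chr6:7693217-7693240, minus strand: cagccacaTGATGaAActtcccgc
Chac1, chr2:119351041-119351064, plus strand: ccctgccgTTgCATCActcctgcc
The Hsp90b1 stretch holds 2 matches of the ER stress response element, in opposite orientation. The Creld2 match lies on the other strand, so its capitals read CGTGG before ATTGG. Herpud1, an ERAD gene, holds the second form and the ATF4 element together.

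**Figure D1:**
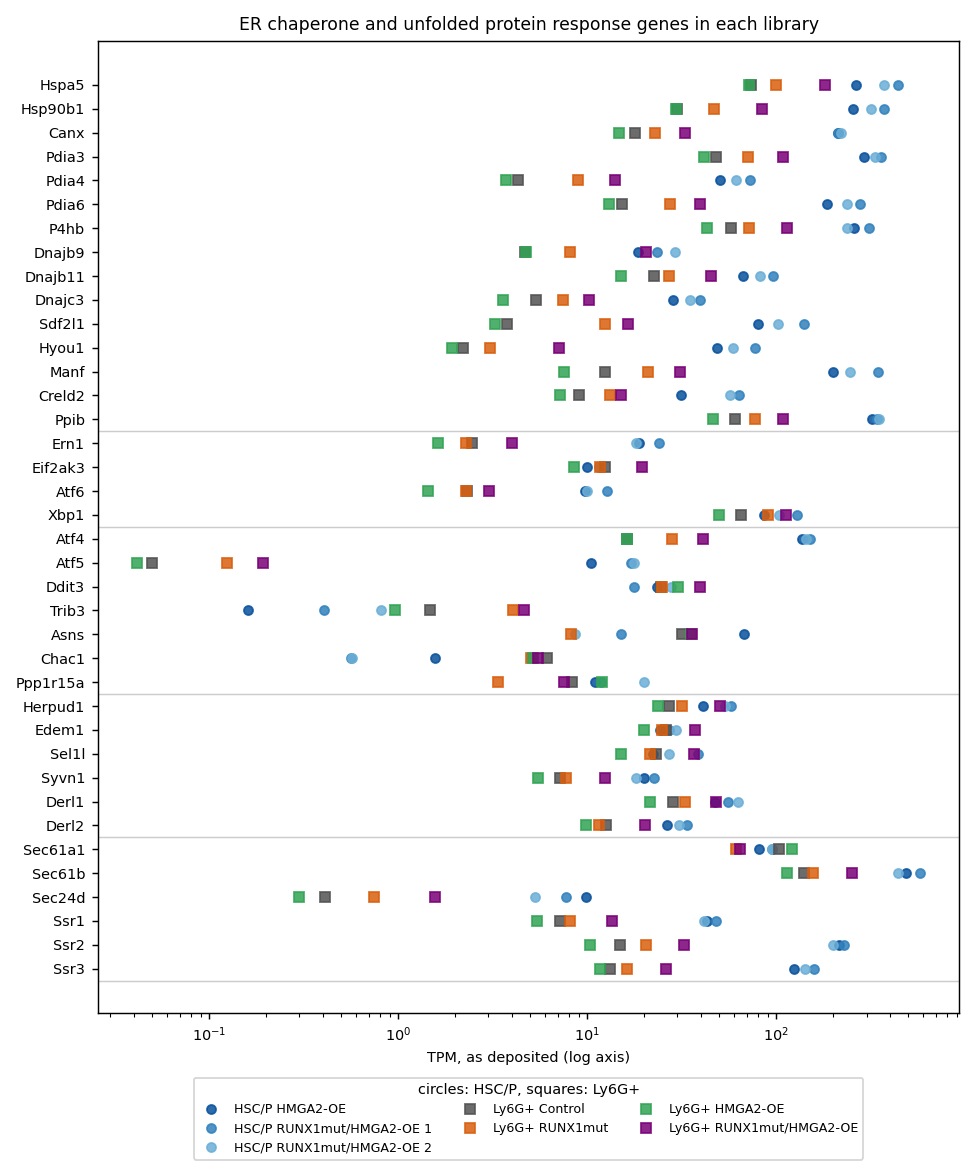
TPM of the 38 members (log axis) in the 3 HSC/P libraries (circles) and the 4 Ly6G+ libraries (squares), grouped from top to bottom as chaperones, sensors and Xbp1, ATF4 arm, ERAD and translocon genes. Manf spans 199.7 to 347 TPM across HSC/P and 7.48 to 31.1 TPM across Ly6G+ cells, while 4 of the 6 ERAD genes, Edem1 among them, overlap and Syvn1 and Derl2 do not.

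Members made up a larger share of the transcripts of HSC/P than of Ly6G+ cells. Their TPM summed to 0.426%, 0.532% and 0.453% of the total in the HSC/P libraries and to 0.0949%, 0.0832%, 0.110% and 0.172% in the Ly6G+ libraries, so the ranges did not overlap. In bulk samples, fewer cells of a type and less RNA per cell cannot be told apart. The comparison of cell types used all 7 libraries in 1 limma fit with both genotype terms, and 12 members were called higher in HSC/P and 14 lower (Benjamini-Hochberg adjusted p under 0.05), against 31.4% of 12881 genes called higher and 33% called lower. Of these, Atf5 (higher) and Trib3 and Chac1 (lower) reached 1 TPM in 2 or more libraries of only the cell type where they were high, so they had to differ and their calls support nothing; 11 higher and 12 lower remain without them. The members' median log2 difference was 0.03, and that of all genes was 0.06. The members therefore did not move as a block: chaperones and ERAD genes went opposite ways. Directions depend on the scaling. Without scaling the median of all genes moved to 1.45, 87.6% of calls were higher against 48.7% with scaling, and 26 members were called higher and 2 lower against 64.9% and 9.22% of all genes; with upper-quartile scaling 64.3% of calls were higher.

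Among the 15 chaperones and folding enzymes, 8 were called higher in HSC/P, 1 was called lower and 6 were not called, beside the 31.4% and 33% of all genes, with a median log2 difference of 0.41. Without scaling all 15 were called higher, including Dnajb9 (0.97), the 1 lower with scaling, which was also not called without the Ly6G+ RUNX1mut/HMGA2-OE library (-0.53), with no filter on low values (-0.53) or with upper-quartile scaling (-0.26). Manf (ENSMUSG00000032575, mm10 chromosome 9, 106838312 to 106891979, minus strand), a secreted ER stress protein that binds BiP, was at 199.7 TPM in the HMGA2-OE library of HSC/P and 347 and 246 TPM in the pair. In Ly6G+ cells it was at 12.4 and 7.48 TPM without the RUNX1 mutation and 20.9 and 31.1 TPM with it. All 3 HSC/P libraries lay above all 4 Ly6G+ libraries, and the difference was 1.93 ± 0.21 (SE; limma, adjusted p = 9.39e-04).

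Hyou1, a large Hsp70-like exchange factor of BiP, was at 48.3 TPM in the HMGA2-OE library of HSC/P and 77.1 and 59.0 TPM in the pair, with Ly6G+ cells at 2.20 and 1.92 TPM without the RUNX1 mutation and 3.05 and 7.12 TPM with it. Its difference was 1.805 ± 0.19 (limma, adjusted p = 8.45e-04) and its groups did not overlap. Sdf2l1, which works with BiP and its DNAJ partners, was at 80.2 TPM in the HMGA2-OE library of HSC/P and 141 and 102 TPM in the pair. In Ly6G+ cells Sdf2l1 was at 3.77 and 3.23 TPM without the RUNX1 mutation and 12.5 and 16.5 TPM with it. Its libraries separated in the same way, with a difference of 1.61 ± 0.29 (limma, adjusted p = 0.00528). Of the remaining chaperones called higher, the lectin chaperone Canx differed by 1.26 ± 0.12 and the disulfide isomerase Pdia6 by 1.24 ± 0.15.

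Hspa5 (ENSMUSG00000026864, mm10 chromosome 2, 34771970 to 34777547, plus strand), the central ER chaperone, did not follow Manf and Hyou1. It was at 264 TPM in the HMGA2-OE library of HSC/P and 442 and 369.9 TPM in the pair, with Ly6G+ cells at 73.0 and 71.9 TPM without the RUNX1 mutation and 99.8 and 181 TPM with it. Its unscaled levels did not overlap between cell types, yet after scaling they did, and the difference was -0.43 ± 0.16 (limma, adjusted p = 0.0591), against 1.48 without scaling and 0.15 with upper-quartile scaling. It was called lower with a filter of 5 TPM (-0.46) and without the first library of the pair (-0.52). Ratios inside a library need no scaling. Manf over Hspa5 was 0.755, 0.786 and 0.665 in the HSC/P libraries and 0.170, 0.104, 0.209 and 0.171 in the Ly6G+ libraries. Every HSC/P library thus had more Manf per Hspa5 than any Ly6G+ library. Hsp90b1, the ER paralogue of Hsp90, gave a ratio to Hspa5 of 0.967, 0.842 and 0.854 in the HSC/P libraries and 0.409, 0.411, 0.469 and 0.461 in the Ly6G+ libraries. These groups also did not overlap, and with 3 against 4 libraries an exact two-sided permutation test cannot go below p = 0.0571.

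ERAD genes, which pull misfolded proteins out of the ER for degradation, formed the opposite group. All 6 (Herpud1, Edem1, Sel1l, Syvn1, Derl1 and Derl2) were called lower in HSC/P with scaling, beside the 33% of all genes, with a median of -1.33, and none of the 6 was called lower without it. By unscaled TPM none was lower: Syvn1 (18.2 to 22.7 TPM across HSC/P, 5.51 to 12.4 TPM across Ly6G+ cells) and Derl2 (26.3 to 33.6 against 9.87 to 20.2 TPM) lay higher in every HSC/P library, and the other 4 overlapped. Edem1, a lectin that picks glycoproteins for degradation, was at 24.2 TPM in the HMGA2-OE library of HSC/P and 26.9 and 29.5 TPM in the pair. In Ly6G+ cells it was at 26.2 and 19.9 TPM without the RUNX1 mutation and 24.9 and 37.0 TPM with it. The unscaled values overlapped, and the scaled difference was -1.91 ± 0.14 (limma, adjusted p = 3.10e-04) against -0.07 without scaling. Sel1l, the adaptor of the ubiquitin ligase Syvn1, was at 22.1 TPM in the HMGA2-OE library of HSC/P and 38.4 and 27.2 TPM in the pair, with Ly6G+ cells at 23.1 and 15.1 TPM without the RUNX1 mutation and 21.4 and 36.9 TPM with it. It differed by -1.67 ± 0.23 with scaling (adjusted p = 0.00211, limma) and by 0.17 without. Herpud1, a membrane scaffold of the same complex, was at 40.7 TPM in the HMGA2-OE library of HSC/P and 57.4 and 53.8 TPM in the pair, with Ly6G+ cells at 27.2 and 23.8 TPM without the RUNX1 mutation and 31.5 and 50.4 TPM with it. Its difference was -1.45 ± 0.14 with scaling (adjusted p = 7.04e-04, limma) and 0.43 without.

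What holds under any scaling is the balance between the 2 groups within a library. The geometric mean of the 15 chaperones was 107, 153 and 133 TPM in HSC/P and 14.3, 11.7, 22.3 and 35.6 TPM across the Ly6G+ libraries. The geometric mean of the 6 ERAD genes was 28.6, 36.9 and 33.9 TPM in HSC/P and 18.7, 14.2, 19.1 and 30.6 TPM across the Ly6G+ libraries. ERAD over chaperones was 0.267, 0.242 and 0.255 in the HSC/P libraries and 1.30, 1.22, 0.856 and 0.860 in the Ly6G+ libraries. Every Ly6G+ library had more ERAD transcript per chaperone transcript than any HSC/P library, and the 2 Ly6G+ libraries with the RUNX1 mutation were lower than the 2 without it.

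**Figure D2:**
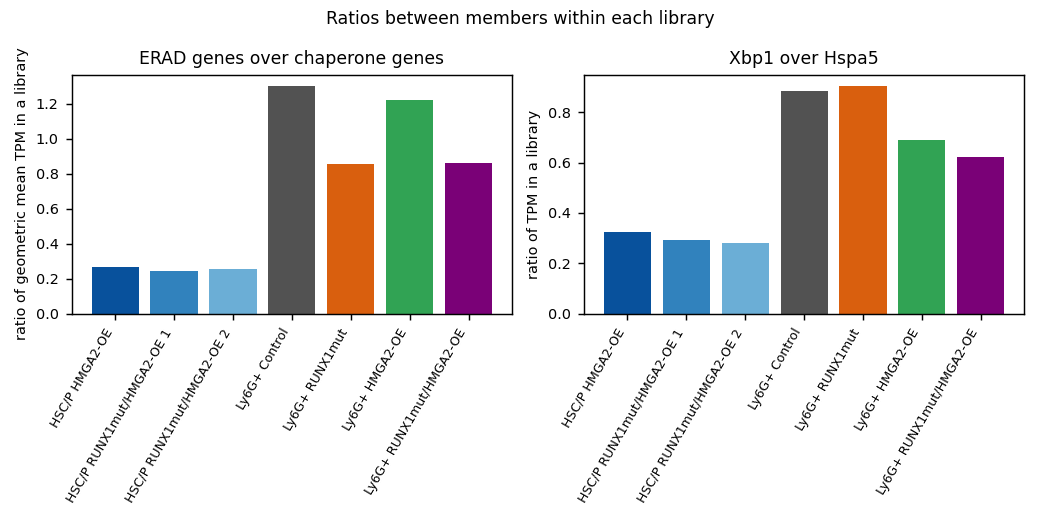
Ratio of the geometric mean TPM of the 6 ERAD genes to that of the 15 chaperones (left) and of Xbp1 to Hspa5 TPM (right), 1 bar per library. The HSC/P bars lie between 0.242 and 0.267 on the left, below the lowest Ly6G+ bar at 0.856.

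Marker sums of cell types with a large secretory load also differed between HSC/P and Ly6G+ libraries. The 6 early granulocyte markers summed to 7770.2, 9237 and 4741 TPM in HSC/P and to 332, 347, 725 and 808 TPM in the Ly6G+ libraries, with all 6 above 0 in every library. Among them Fcnb overlapped, at 277, 47.8 and 85.6 TPM in HSC/P and 201 to 337 TPM across Ly6G+ cells. The 8 plasma cell markers summed to 4187, 4116 and 673 TPM across HSC/P and to 71.7 up to 180.0 TPM across Ly6G+ cells. Of these markers, 7 were above 0 in every library and Tnfrsf17 was listed at 0 in 3 Ly6G+ libraries. Most of the HSC/P sums was Igkc, at 3881, 3597 and 525 TPM. Prdm1 and Tnfrsf17 overlapped between cell types. Within HSC/P the second library of the pair had the lowest of both sums. The chaperone means were 107, 153 and 133 TPM in the same order of libraries. The part of early granulocytes and of plasma cells in the chaperone levels was not tested.

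Of the sensors, Ern1, which encodes the kinase and endonuclease that splices Xbp1 RNA, was called higher in HSC/P, and Eif2ak3, the kinase PERK, was called lower. With Xbp1 included, 1 of 4 genes was called higher and 2 lower, against 31.4% and 33% of all genes. Ern1 was at 18.7 TPM in the HMGA2-OE library of HSC/P and 24.0 and 18.0 TPM in the pair, with Ly6G+ cells at 2.44 and 1.62 TPM without the RUNX1 mutation and 2.28 and 3.99 TPM with it. The groups did not overlap and the difference was 0.85 ± 0.19 (limma, adjusted p = 0.0129). Eif2ak3 was at 9.98 TPM in the HMGA2-OE library of HSC/P and 11.5 and 11.5 TPM in the pair, with Ly6G+ cells at 12.4 and 8.52 TPM without the RUNX1 mutation and 11.7 and 19.5 TPM with it. Its unscaled values overlapped, and the difference was -2.02 ± 0.14 with scaling (limma, adjusted p = 2.64e-04) and -0.29 without, where it was not called. Xbp1 (ENSMUSG00000020484, mm10 chromosome 11, 5520659 to 5525893, plus strand), whose spliced form drives chaperone and ERAD genes, was at 86.3 TPM in the HMGA2-OE library of HSC/P and 129 and 103 TPM in the pair. In Ly6G+ cells it was at 64.6 and 49.5 TPM without the RUNX1 mutation and 90.2 and 113 TPM with it. It was called lower in HSC/P with scaling (-1.53 ± 0.16; limma, adjusted p = 8.93e-04) but stood at 0.37 without. Xbp1 over Hspa5 was 0.326, 0.293 and 0.279 in the HSC/P libraries and 0.885, 0.689, 0.904 and 0.624 in the Ly6G+ libraries, with no overlap. Gene-level TPM do not separate spliced from unspliced Xbp1.

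In the ATF4 arm, Ddit3 and Asns were called lower in HSC/P, 2 of the 4 genes of the 7 that reached 1 TPM in at least 2 libraries of each cell type, against 33% of all genes. Atf5, Trib3 and Chac1 reached it in only 1 cell type and are described by their levels. Without scaling, Ddit3 and Asns kept a negative value, -0.61 and -0.48, and were not called. Asns overlapped between cell types with and without scaling. Its scaled values were 32.8, 6.33 and 3.51 in HSC/P and 67.8, 96.9, 14.6 and 40.7 in Ly6G+ cells. By unscaled TPM, HMGA2-OE HSC/P (67.6 TPM) lay above every Ly6G+ library (8.15 to 35.7 TPM) and the pair did not. Atf4 itself was at 137 TPM in the HMGA2-OE library of HSC/P and 150.1 and 144 TPM in the pair, with Ly6G+ cells at 16.2 and 16.1 TPM without the RUNX1 mutation and 28.0 and 40.9 TPM with it, and was not called (0.44 ± 0.18; limma, adjusted p = 0.0781). Atf5, a related factor of the same stress response, was at 10.4 TPM in the HMGA2-OE library of HSC/P and 17.0 and 17.7 TPM in the pair. In Ly6G+ cells it was at 0.0499 and 0.0414 TPM without the RUNX1 mutation and 0.124 and 0.193 TPM with it, below 1 TPM in every library.

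Ddit3, the proapoptotic factor CHOP, was at 23.3 TPM in the HMGA2-OE library of HSC/P and 17.6 and 27.7 TPM in the pair. In Ly6G+ cells it was at 24.7 and 30.3 TPM without the RUNX1 mutation and 25.0 and 39.6 TPM with it. The scaled difference of Ddit3 was -2.45 ± 0.24 (limma, adjusted p = 6.72e-04), while its unscaled TPM overlapped between cell types. Atf4 was several-fold higher by unscaled TPM in HSC/P and was not called with scaling. Ddit3 over Atf4 was 0.170, 0.118 and 0.193 in the HSC/P libraries and 1.53, 1.88, 0.891 and 0.968 in the Ly6G+ libraries. Ly6G+ cells thus carried more Ddit3 per Atf4 in every library. Chac1, an enzyme that degrades glutathione, was at 1.57, 0.560 and 0.568 TPM in the HSC/P libraries and ranged from 5.03 to 6.14 TPM across Ly6G+ cells. The pseudokinase gene Trib3 was at 0.161, 0.406 and 0.814 TPM across HSC/P and ranged from 0.955 to 4.64 TPM across Ly6G+ cells. Both lay lower in each HSC/P library without scaling, and both passed the filter through Ly6G+ cells alone.

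Among translocon genes, Ssr2 and Ssr3, subunits of the translocon-associated protein complex, were called higher in HSC/P and Sec61a1, the channel subunit, was called lower. That is 2 higher and 1 lower of 6 genes, against 31.4% and 33% of all genes, so the group had no excess of calls. Ssr2 was at 214 TPM in the HMGA2-OE library of HSC/P and 227 and 199 TPM in the pair, with Ly6G+ cells at 14.8 and 10.3 TPM without the RUNX1 mutation and 20.4 and 32.6 TPM with it. It differed by 1.48 ± 0.19 (limma, adjusted p = 0.00156) with no overlap. Ssr3 was at 124 TPM in the HMGA2-OE library of HSC/P and 158 and 141 TPM in the pair, with Ly6G+ cells at 13.2 and 11.7 TPM without the RUNX1 mutation and 16.2 and 25.9 TPM with it. It differed by 0.98 ± 0.13 (limma, adjusted p = 0.00173), again without overlap. Sec61a1 (ENSMUSG00000030082, mm10 chromosome 6, 88503579 to 88518905, minus strand) was at 81.1 TPM in the HMGA2-OE library of HSC/P and 94.5 and 95.1 TPM in the pair, with Ly6G+ cells at 103 and 121 TPM without the RUNX1 mutation and 60.9 and 64.5 TPM with it. Its difference was -1.81 ± 0.48 with scaling (limma, adjusted p = 0.0208), 0.09 without, and not called with upper-quartile scaling (-1.23) or with no filter on low values (-1.52). Its ratio to Sec61b, another subunit of the same channel, was 0.168, 0.164 and 0.216 in the HSC/P libraries and 0.741, 1.06, 0.392 and 0.256 in the Ly6G+ libraries. That ratio was higher in every Ly6G+ library than in any HSC/P library.

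**Figure D3:**
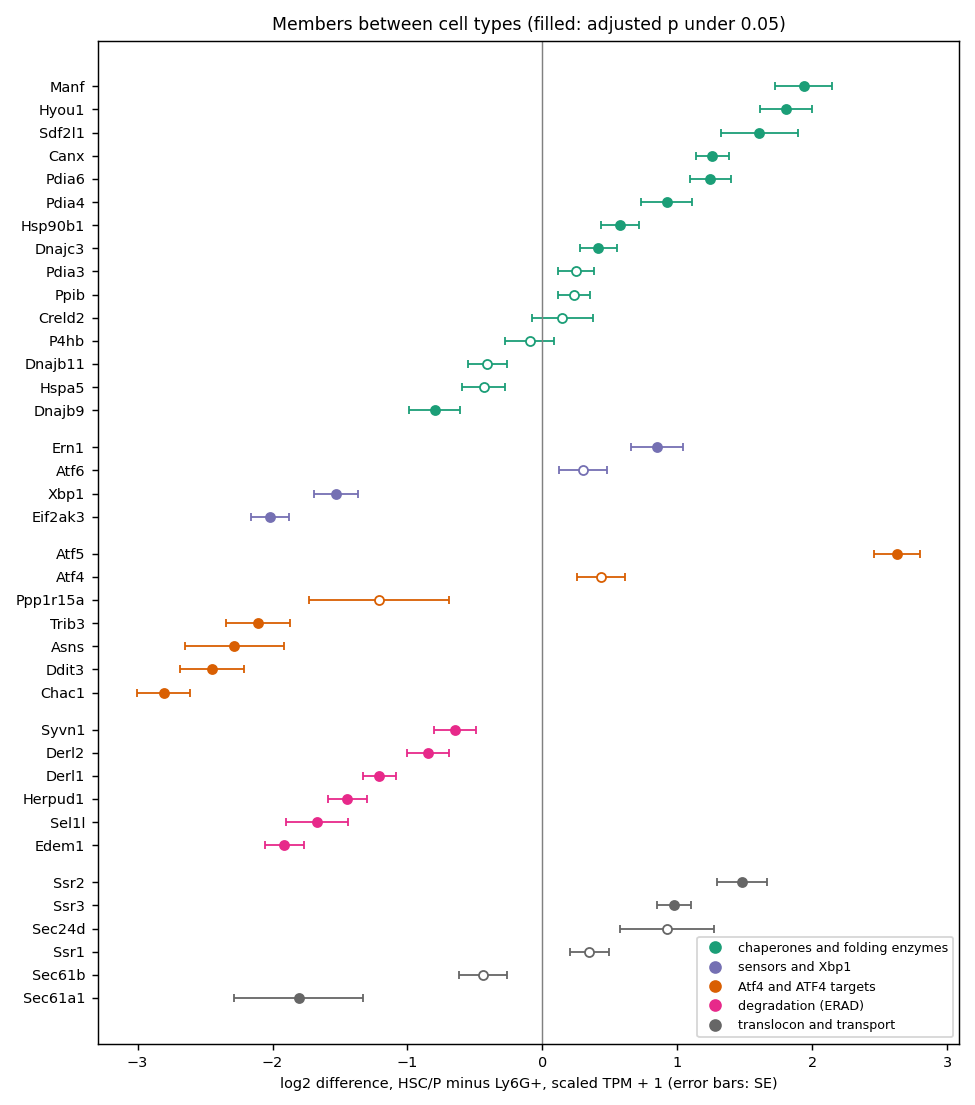
log2 difference between HSC/P and Ly6G+ cells on the scaled TPM + 1 scale for each member, with SE, from the fit over 7 libraries; filled points had an adjusted p under 0.05. Manf at 1.93 tops the chaperones and all 6 ERAD genes lie below 0; without scaling none of the ERAD genes was called lower.

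Across the 38 members, 17 had all HSC/P libraries above all Ly6G+ libraries after scaling, 14 had all below and 7 overlapped. The shares over all genes tested were 35.1% above and 35.4% below. Without scaling the counts were 25, 2 and 11, against 66.5% above and 9.18% below. The 2 below were Chac1 and Trib3, which passed the filter through Ly6G+ cells alone, so their separation supports nothing. They are also among the 14. Atf5 and Sec24d, which passed through HSC/P alone, are among the 17 and the 25. The wider pathway gave a similar count. Of 97 other tested genes of folding, ERAD, sensing, ATF4 targets and translocation, 30 were called higher and 29 lower, near the 31.4% and 33% of all genes. These counts include genes that passed the filter only through the cell type where they were high, and their calls support nothing. Such genes were Pdia5, Fkbp11, Eif2ak4, Ddit4 and Sec24a among the higher and Atf3 and Slc7a11 among the lower. The serine and one-carbon genes Psat1 (2.60 ± 0.32) and Shmt2 (2.90 ± 0.40) were among the 3 most raised in HSC/P, with Ddit4 (3.08 ± 0.19), an inhibitor of mTORC1 signalling that passed the filter through HSC/P alone. Psat1 levels were 64.9, 85.3 and 82.6 TPM across HSC/P and 1.07, 1.17, 4.74 and 4.94 TPM across Ly6G+ cells. Cebpb (-5.37 ± 0.41), a myeloid transcription factor, and the stress gene Sesn2 (-3.11 ± 0.13) were among the 3 lowest. Their unscaled levels in Ly6G+ cells, such as 100.2, 184, 139.5 and 219 TPM for Cebpb, lay above all 3 HSC/P libraries (21.8, 20.6 and 9.12 TPM).

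The next question was whether the RUNX1 mutation, on the HMGA2-OE background, went with a change in HSC/P. The limma test called 0 of 12226 genes, the smallest adjusted p was 0.112, and 1908 genes had an unadjusted p under 0.05. No member was called (0% of all genes higher, 0% lower). With an unadjusted p under 0.05 there were 2 members higher and 1 lower of 36 tested, against 8.35% and 7.26% of all genes. The members' median was 0.11 against -0.02 for all genes, and 12 of 15 chaperones had a positive value (median 0.25). For 20 of 36 members both libraries of the pair lay above HMGA2-OE and for 6 both lay below, against 37.8% and 41% of all genes. Chaperones made up 11 of the 20, and without scaling 14 of the 15 chaperones had both pair libraries above, against 54.1% of all genes.

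Asns (ENSMUSG00000029752, mm10 chromosome 6, 7675169 to 7693254, minus strand), the enzyme that makes asparagine and a standard target of ATF4, had the largest difference of any member within HSC/P. Its levels were 67.6 TPM in HMGA2-OE and 15.0 and 8.58 TPM in the pair, and the difference was -2.63 ± 0.39 (limma, adjusted p = 0.155). Both pair libraries lay below HMGA2-OE, by -2.24 and -3.02 on the scaled log2 scale. Atf4 stayed between 137 and 150.1 TPM in the same libraries, and Asns over Atf4 was 0.493 against 0.100 and 0.0596. Creld2, a disulfide isomerase-like ER stress gene, was at 31.2 TPM against 63.8 and 56.6 TPM, a difference of 0.76 ± 0.17 (limma, adjusted p = 0.213). Atf5 differed by 0.53 ± 0.18 (adjusted p = 0.319, limma) and Hspa5 by 0.44 ± 0.17 (adjusted p = 0.351, limma). None of these passed. HSC/P marker sums were 414 TPM in HMGA2-OE against 1127 and 1101 TPM, alongside the neutrophil sums given above. Mast cell and basophil markers summed to 35.1 TPM against 234 and 262 TPM, megakaryocyte markers to 410 against 797 and 2093 TPM, and monocyte and macrophage markers to 844 against 325 and 276 TPM. Most of the last sum was Ly6c2, at 715 TPM against 182 and 176 TPM. Csf1r went the other way (15.8 TPM against 42.6 and 18.5 TPM), while C1qa, C1qb and C1qc lay lower in the pair. Cpa3 (6.97 TPM against 192 and 189 TPM) made up most of the mast cell and basophil sums of the pair. For the markers Mcpt8, Ms4a2 and Fcer1a the pair lay on both sides of HMGA2-OE. The same held for Pf4 among megakaryocyte markers and for Flt3 and Hoxa9 among HSC/P markers. The part of these cells in the member values was not tested.

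**Figure D4:**
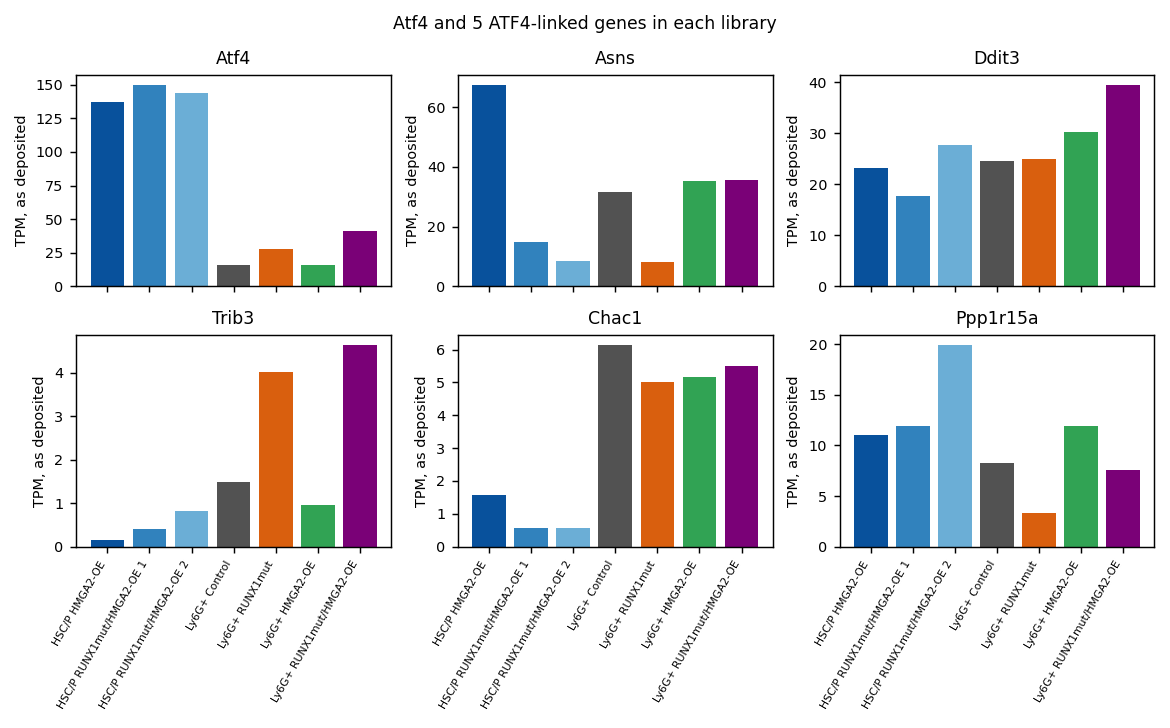
Deposited TPM of Atf4 and 5 ATF4-linked genes in the 7 libraries (bars; each panel has its own axis from 0). Asns stands at 67.6 TPM in the HSC/P library with HMGA2-OE alone, against 15.0 and 8.58 TPM in the pair, while Atf4 is nearly level across the 3.

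In Ly6G+ cells the RUNX1 term was estimated from 4 libraries with HMGA2-OE as the second term, and the design has no replicate of any genotype. The limma test called 0 of 9820 genes, with a smallest adjusted p of 0.331 and 1407 genes at an unadjusted p under 0.05; without scaling it called 133. No member was called with scaling (0% of genes in either direction). At an unadjusted p under 0.05 there were 6 members higher and 3 lower of 36 tested, against 7.71% and 6.62% of all genes, and the members' median was 0.08 against 0.01. All 15 chaperones had a positive value, with a median of 0.29, while all 6 ERAD genes had a negative value (median -0.06). In single-library contrasts without scaling, all 15 chaperones were positive in RUNX1mut over Control and in RUNX1mut/HMGA2-OE over HMGA2-OE. So were 6396 and 9294 of all 9820 genes, and the median of all genes for the term was 0.58. Edem1, for example, stood at -0.07 and 0.86. With scaling 15 and 13 of the 15 chaperones were positive, against 4857 and 5091 of all genes. Of 36 members, 17 had both mutant libraries above both others and 8 had both below, against 26.1% and 24.5% of all genes.

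Sdf2l1 had the highest value. Its scaled TPM were 4.18 and 4.68 without the mutation and 12.2 and 10.4 with it, and the term was 1.18 ± 0.16 (limma, adjusted p = 0.331). The mutant libraries lay above both others with no overlap. The disulfide isomerase Pdia4 (0.70 ± 0.12), Manf (0.68 ± 0.14), the BiP cofactor Dnajb9 (0.68 ± 0.15) and Pdia6 (0.51 ± 0.13) followed, and Trib3 (0.82 ± 0.15) was the highest outside the chaperones. Hspa5 was at 0.21 ± 0.11, and its scaled libraries overlapped. On the other side, Ppp1r15a, which encodes the phosphatase subunit that reverses eIF2-alpha phosphorylation, was at 8.25 and 12.0 TPM without the mutation and at 3.36 and 7.54 TPM with it. Its term was -1.45 ± 0.17 (limma, adjusted p = 0.331). Sec61a1 was at 103 and 121 TPM without the mutation and 60.9 and 64.5 TPM with it, a term of -1.50 ± 0.36 (limma, adjusted p = 0.331). Both genes separated the libraries by genotype with and without scaling.

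Asns in Ly6G+ cells was at 8.15 TPM in RUNX1mut against 31.6 TPM in Control, and at 35.7 TPM in RUNX1mut/HMGA2-OE against 35.4 TPM in HMGA2-OE. The term was -1.58 ± 0.28 (limma, adjusted p = 0.331), and the second pair was at -1.15 with scaling and 0.01 without, so its direction there rests on the scaling. Chac1 was at -0.66 ± 0.20 and Ddit3 at -0.47 ± 0.22, the latter 0.19 without scaling. Without the RUNX1mut/HMGA2-OE library the terms were -0.36 for Chac1, -0.12 for Ddit3 and -0.90 for Sec61a1. Unscaled marker sums differed between libraries with and without the mutation, on a scale where all genes shifted too. The unscaled median of all genes was 0.14 in RUNX1mut over Control and 1.02 in RUNX1mut/HMGA2-OE over HMGA2-OE. Early granulocyte marker sums were 332 and 347 TPM without the mutation and 725 and 808 TPM with it, and HSC/P marker sums were 20.5 and 17.5 against 47.2 and 67.3 TPM. Megakaryocyte marker sums were 3.84 and 4.47 against 42.9 and 56.0 TPM, plasma cell sums 92.5 and 71.7 against 133 and 180.0 TPM, and B cell sums 17.1 and 14.0 against 39.0 and 49.6 TPM. Within these lists Fcnb, Kit, Erg, Hoxa9, Gp1bb, Ighm and Tnfrsf17 overlapped between libraries with and without the mutation. Mast cell and basophil sums were 10.9 and 18.5 against 88.1 and 35.1 TPM, and monocyte and macrophage sums 1485 and 1101 against 935 and 876 TPM. The latter sums were mostly Ly6c2 (1411 and 1033 against 788 and 663 TPM). Every other marker of that list lay higher with the mutation by unscaled TPM, such as Csf1r (33.7 and 27.9 against 55.4 and 74.5 TPM). Erythroid markers reached 5815 TPM in RUNX1mut/HMGA2-OE against 76.0 to 315 in the other 3. Their part in the chaperone values was not tested.

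Setting the 4 single-library contrasts side by side (each library of the HSC/P pair over HMGA2-OE, Ly6G+ RUNX1mut over Control, and Ly6G+ RUNX1mut/HMGA2-OE over HMGA2-OE), 11 of 34 members tested in both cell types were above 0 in all, against 11.5% of 9305 genes. These were Hspa5, Hsp90b1, Pdia4, Pdia6, Dnajb9, Dnajb11, Dnajc3, Sdf2l1, Hyou1 and Manf, all chaperones or folding enzymes, and Xbp1. Only Asns was below 0 in all, against 14.2% of genes. Without scaling 19 members were above 0 in all and none was below, against 35.5% and 0.849% of genes. The HSC/P contrasts share the HMGA2-OE library. Hyou1, for example, was at 0.52 and 0.09 in HSC/P and 0.22 and 0.54 in Ly6G+ cells, and Pdia4 at 0.39, 0.09, 0.76 and 0.63. The second library of the pair gave the smaller value of the HSC/P contrasts for both genes.

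**Figure D5:**
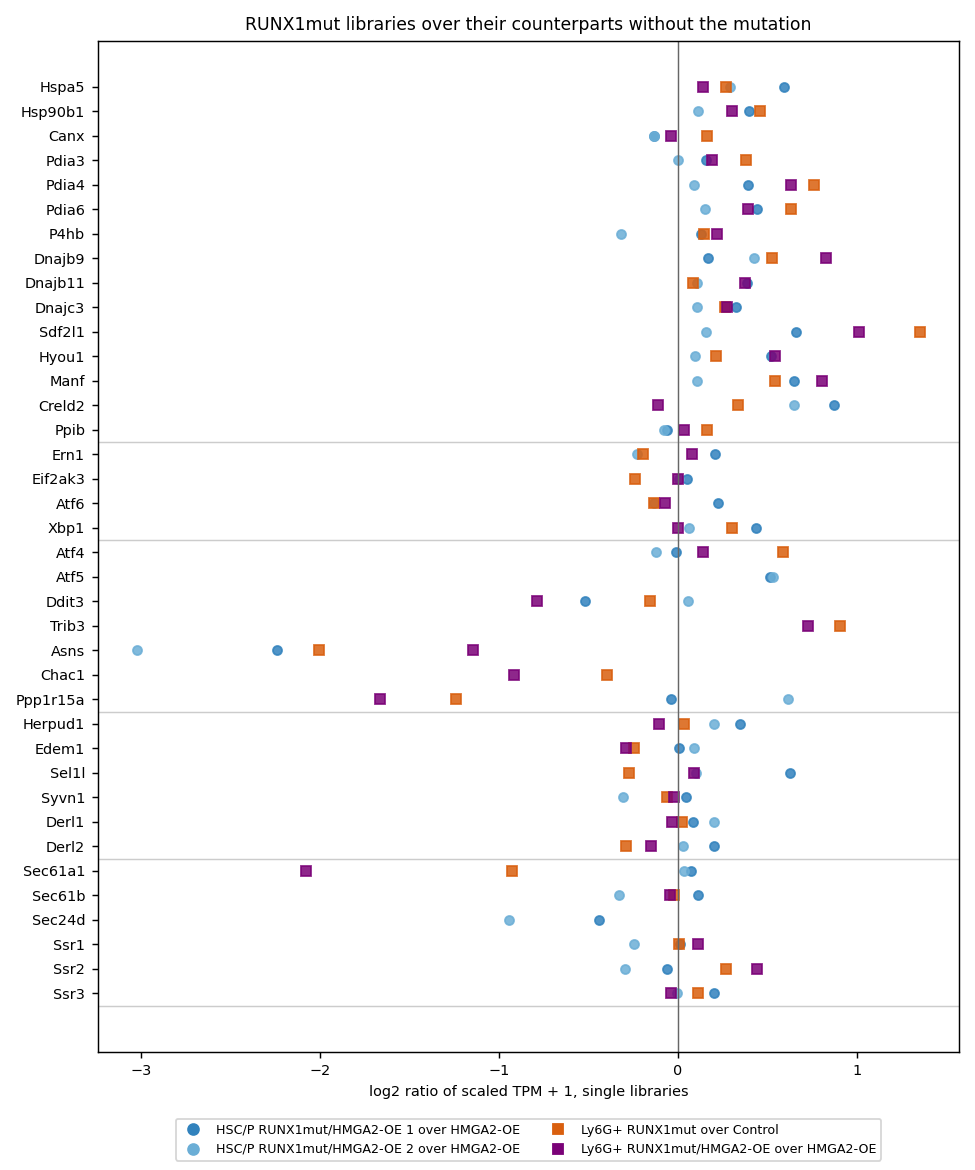
log2 ratio of scaled TPM + 1 for each member in 4 single-library contrasts with over without the RUNX1 mutation (circles HSC/P, squares Ly6G+); genes under the filter in a cell type have no point there. Asns lies between -3.02 and -1.15 and most chaperones lie right of 0; without scaling the Ly6G+ RUNX1mut/HMGA2-OE point of Asns is at 0.01.

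Overexpression of HMGA2 in Ly6G+ cells was read from the same 4 libraries, and no member passed. The limma test called 0 of 9820 genes (0% higher, 0% lower), with 639 at an unadjusted p under 0.05 and a smallest adjusted p of 0.256; without scaling it called 61. The members' median was 0.02 against 0.01 for all genes, and 1 of 36 members, Ppp1r15a, had an unadjusted p under 0.05, against 3.34% of genes higher and 3.17% lower. Ppp1r15a was at 0.64 ± 0.17 (limma, adjusted p = 0.741). Asns was at 0.96 ± 0.28 (adjusted p = 0.741, limma), Dnajb9 at 0.49 ± 0.15 and Hspa5 at 0.29 ± 0.11. Without the RUNX1mut/HMGA2-OE library Asns was at 0.51 and Dnajb9 at 0.31. Herpud1, Hspa5, Sec61b and Ssr3 had both HMGA2-OE libraries above both others and Atf6 and Derl1 had both below, against 16% and 13.5% of all genes.

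Whether the RUNX1 difference itself differed between cell types was tested by an interaction in the 5 libraries with HMGA2-OE, which leaves 1 residual degree of freedom. It called 0 of 12686 genes (limma; 0% in either direction, 2297 at an unadjusted p under 0.05, smallest adjusted p 0.122), but 3250 with no filter on low values and 1 with a filter of 5 TPM. On simulated data this model recovered none of the changes put in, so its 0 calls say nothing about stability. At an unadjusted p under 0.05 there were 3 members higher and 0 lower, against 8.6% and 9.51% of all genes. Sec61a1 was at 2.22 ± 0.17 (limma, adjusted p = 0.122), with a higher value in HSC/P, and was called with no filter (2.24, adjusted p = 0.0181, limma). Its RUNX1 contrasts were 0.08 and 0.04 in HSC/P and -2.08 in Ly6G+ RUNX1mut/HMGA2-OE over HMGA2-OE. Ppp1r15a was at 2.12 ± 0.54 (limma, adjusted p = 0.238), and Creld2 at 0.94 ± 0.24 (limma, adjusted p = 0.237), which turned to -0.05 without scaling. Asns was at -1.31 ± 0.58 (limma, adjusted p = 0.37). With the filter of 1 TPM the test misses its threshold for every member, which does not show that the cell types respond alike.

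Other genes of the pathway gave no call in the RUNX1 comparisons either. In HSC/P the lowest of them were the signal peptidase gene Spcs1 (-1.17 ± 0.38), the oxidase Ero1l (-0.84 ± 0.19) and Fkbp11 (-0.80 ± 0.40), and the highest were Vldlr (1.73 ± 1.19), Nupr1 (1.13 ± 0.64) and Mbtps2 (0.45 ± 0.34). Vldlr stood at 12.3 TPM in 1 library of the pair and at 1.31 in the other. In Ly6G+ cells the highest RUNX1 terms were those of the translocon gene Sec61g (1.41 ± 0.29), the oligosaccharyltransferase subunit Rpn2 (1.34 ± 0.80) and the serine synthesis gene Phgdh (1.18 ± 0.39). Phgdh was at 1.75 and 2.84 TPM without the mutation and 9.34 and 10.4 TPM with it. The lowest were Mbtps2 (-1.57 ± 1.801), the COPII scaffold gene Sec16a (-0.62 ± 0.13) and Ero1l (-0.54 ± 0.13). With scaling, Phgdh and Asns separated the Ly6G+ libraries by genotype in opposite directions, although both are ATF4-linked amino acid genes. Without scaling Phgdh still separated them and Asns overlapped. For the HMGA2-OE term the largest values were those of Cebpb (0.64 ± 0.39), Ssr4 (0.60 ± 0.39) and Nupr1 (0.54 ± 0.19), with Rpn2 (-1.31 ± 0.80), Spcs1 (-1.29 ± 0.51) and Srp68 (-0.36 ± 0.14) lowest.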

How the data were processed

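RNA-seq was made from 3 HSC/P and 4 Ly6G+ libraries. The authors deposited 1 table of TPM, as read from its values, since no header names a unit. The submitters' processing notes name bcl2fastq, CASAVA 1.8, kallisto and mm10; for the annotation release and index, the sources used here say nothing. TPM keeps no read depth, so no counting interval is given. No gene had identical values above 0 in the replicate pair. Libraries were scaled within each fit with a trimmed mean of log ratios, unweighted (trim 0.3 on ratios, 0.05 on levels), and log2(scaled TPM + 1) of genes reaching 1 TPM in 2 or more libraries was tested with limma 3.58.1 in R 4.3.3 (trend on mean level, two-sided, Benjamini-Hochberg over all genes tested, threshold 0.05). The labels describe individual mice, and p-values measure only the spread between these libraries. The model for the HSC/P comparison has 1 residual degree of freedom, that for the Ly6G+ terms 1, that for the cell types 3. Members, lists and alternatives were chosen with earlier results of these data known. Values in every library are given for Hspa5, Xbp1, Ddit3 and, per group, the 3 members with the largest difference in any fit among those reaching 10 TPM; further members and marker genes were named after their values were seen. Of the other pathway genes, the 3 highest and 3 lowest per fit reaching 10 TPM are named, except 1 that is not reported here. Scripts were tested on simulated data. Alternatives were a pseudocount of 0.5 TPM, no filter, a filter of 5 TPM, no scaling, upper-quartile scaling, no trend and leaving out libraries. Gene positions are from the GENCODE annotation of GRCm38 (mm10) and promoters from RefSeq.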

Additional observations from a re-analysis of the deposited data

How the results depend on the processing

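Without scaling, the genes called were 1 in the HSC/P RUNX1 comparison, 133 for the Ly6G+ RUNX1 term and 61 for the HMGA2-OE term, and the members' medians were 0.27, 0.73, 0.14, 1.83 and -1.003 for HSC/P, the Ly6G+ RUNX1 term, the HMGA2-OE term, the cell types and the interaction. In the cell type comparison it called 26 members higher and 2 lower, 15 chaperones higher and 0 ERAD genes lower, and turned Hspa5 to 1.48, Dnajb9 to 0.97, Xbp1 to 0.37, Sel1l to 0.17, Herpud1 to 0.43 and Sec61a1 to 0.0935; the counts under other settings were chosen after seeing the data. It also turned Ddit3 in the Ly6G+ RUNX1 term to 0.19 and Creld2 in the interaction to -0.0489. Upper-quartile scaling gave a cell type median of 0.59, 19 members called higher and Hspa5 at 0.15. The cell type median was 0.31 with no filter, 0.12 with the 5 TPM filter and -0.0922 without the Ly6G+ RUNX1mut/HMGA2-OE library. The interaction called 3250 genes with no filter and 1 with the 5 TPM filter; the cause was not tested. Leaving out each library of the HSC/P pair gave members' medians of 0.10 and 0.20 in HSC/P and of -0.15 and 0.10 in the interaction. Of the remaining single-gene values, 360 with a test kept direction and side of the threshold, 3 newly passed and 9 no longer passed; of those with no residual degree of freedom and so no test, 29 moved by less than their SE and 13 by more. No paired analysis was possible because only HSC/P RUNX1mut/HMGA2-OE has more than 1 library, so the groups compared share fewer than 2 replicate numbers. Unknown read depth and single libraries per Ly6G+ genotype limit what can be detected.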

Other observations

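Some pathway genes outside the 38 had a single library far from the rest, singled out after their values were seen. Rpn2, an oligosaccharyltransferase subunit, was at 183 TPM in Ly6G+ RUNX1mut against 19.2 to 44.8 TPM in the other Ly6G+ libraries. Mbtps2, the protease that releases ATF6 from the membrane, was at 31.4 TPM in Ly6G+ HMGA2-OE and 1.63 TPM in RUNX1mut/HMGA2-OE. Calr, the soluble partner of Canx, was at 725, 998 and 714 TPM across HSC/P and at 23.0, 24.6, 54.2 and 84.2 TPM across the Ly6G+ libraries, so that both libraries with the mutation were above both without it. Among serine and one-carbon genes, Shmt2 was at 1.34 and 1.15 TPM in Ly6G+ libraries lacking the mutation and at 5.91 and 6.30 TPM with it, and Mthfd2 was at 9.14 and 6.83 against 14.7 and 20.6 TPM. These values and those of Calr are unscaled, where 5902 of 9820 genes had both mutant Ly6G+ libraries above both others. In HSC/P, Shmt2 stayed between 102 and 112 TPM.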
